A study of Homo sapiens with 8 samples.

Results

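The gene expression change in HCT116 cells after transfection of mature miR-490-5p was measured on 1 of the 8 arrays of the series, the only array labelled miR-490-5p. HCT116 is an established human colorectal cancer cell line. The array was an Agilent 2-colour expression array. The Cy3 channel held total RNA of mock HCT116 cells, labelled as not transfected, and the Cy5 channel held total RNA of HCT116 cells transfected with miR-490-5p by Lipofectamine RNAiMAX. The mock therefore lacked a control miRNA, and the change caused by the transfection itself and the change caused by the miR-490-5p sequence cannot be told apart on this array. The array labelled miR-490-3p, which carries the opposite strand of the same duplex in HCT116, is given beside it; the labels do not say whether both HCT116 arrays carried the same mock extract. The other 6 arrays (miR-139-5p and miR-139-3p in the renal cancer lines A498 and 786-O, and si-GINS1 in the breast cancer line MDA-MB-231) served to show probes that take up the dyes unequally, since no array had its dyes swapped, and as values to set beside those of HCT116. With 1 array there was no replicate and no test was made; values are log2 ratios of Cy5 over Cy3, so that -1 is a 2-fold lower and 1 a 2-fold higher signal in miR-490-5p transfected cells.

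MiRNAs are short RNAs that guide Argonaute proteins in the RNA-induced silencing complex to messenger RNAs, mostly through pairing of the seed (bases 2 to 8) with sites in the message, which lowers the amount or the translation of that message. Both strands of a miRNA duplex can be loaded. The sequences of the miR-490 strands are shown because the seed decides which words in a transcript can pair. They are taken from RefSeq (GRCh38.p14), are written 5′ to 3′, and carry the seed in capitals.
hsa-miR-490-5p: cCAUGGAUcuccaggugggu
hsa-miR-490-3p: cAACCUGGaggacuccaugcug
The strand miR-490-5p lies at chr7:136903205-136903224 and miR-490-3p at chr7:136903242-136903263, both on the plus strand. The seeds differ, and among 2370 mature human miRNA names of the reference only miR-490-5p had the seed CAUGGAU. A message pairs with this seed through the word ATCCATG (bases 2 to 8) or TCCATGA (bases 2 to 7 followed by A), written as DNA.

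In all, 21046 genes had a probe well above background in at least 1 channel. The median log2 ratio was 0.01, and 90.5% of the genes lay within 0.5 of 0. At or below -1 lay 232 genes (1.1% of those tested) and at or above 1 lay 65 genes (0.309%), so 78.1% of the genes past the limit were lower after miR-490-5p. This split depended on the scaling. With median centring in place of loess it was 162 lower against 130 higher, and with the log ratio of the scanner software it was 806 lower against 1026 higher. The genes past the limit were mostly bright: the 5262 brightest genes held 155 of the lower and 43 of the higher genes, and the 5262 dimmest held 0 of either, with an SD of the log2 ratio of 0.096 in the dimmest and 0.45 in the brightest. An offset added before the logarithm draws dim probes toward 0. Much of the change was shared with the opposite strand. On the miR-490-3p array 206 of the 232 lower genes were below 0, and their median was -0.54. Of these lower genes 61 were at or below -1 there, beside 0.665% of all genes of that array. The 65 higher genes had a median of 0.81 there, and 26 were at or above 1, beside 0.412% of all genes.

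**Figure D1:**
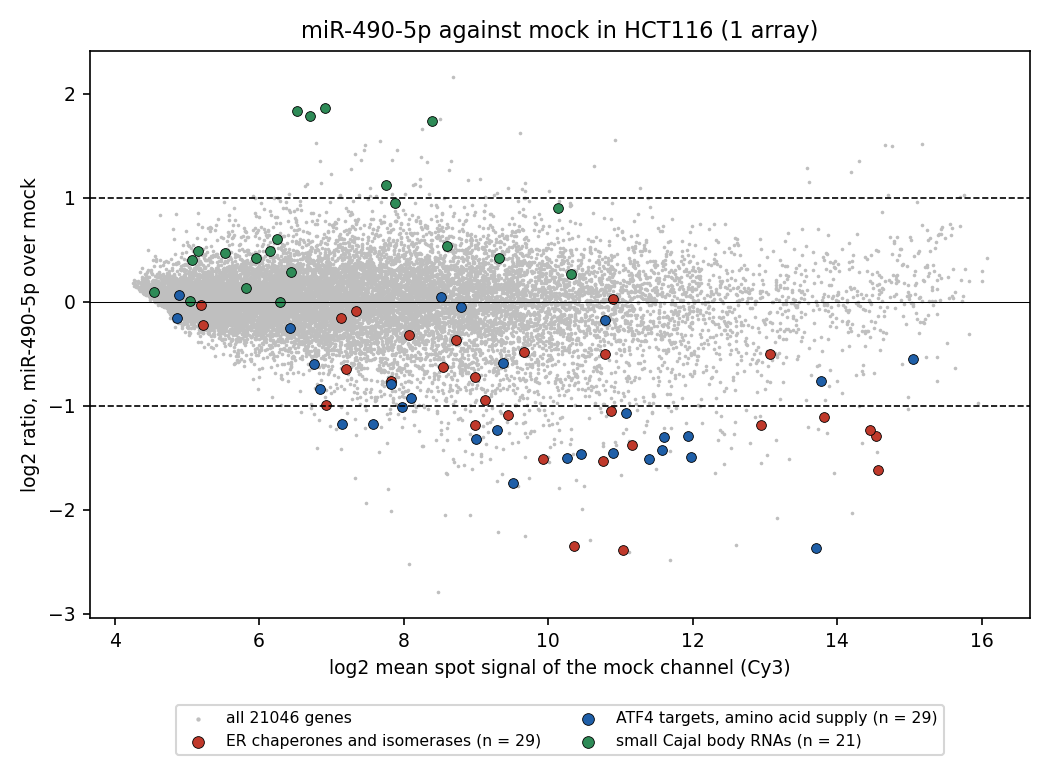
Each point is 1 gene on the miR-490-5p array, with the log2 mean spot signal of the mock channel on the x axis and the log2 ratio of miR-490-5p over mock on the y axis; dashed lines mark -1 and 1. Of the coloured lists, 13 of 29 endoplasmic reticulum (ER) chaperones and isomerases and 16 of 29 ATF4 targets lie at or below -1, and 5 of 21 small Cajal body RNAs lie at or above 1.

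The only measure of spread in HCT116 was the difference between the Cy3 (mock) channels of the pair of HCT116 arrays. Its SD over genes was 0.081 on the log2 scale, against 0.31 for the ratio of miR-490-5p over mock. These are unlike measures. The mock difference sets Cy3 against Cy3 after quantile normalization, and the ratio sets Cy5 against Cy3 after loess. Only the ratio can hold a difference between the dyes. Without background correction the SD of the mock difference was 0.12. In the mock channels 4 of 21044 genes differed by 1 or more (0.00475% in the lower and 0.0143% in the higher direction). For 1 of these, ENST00000567862, the low ratio after miR-490-5p (-1.94) was matched by a mock signal 1.98 higher on its own array than on the other, and the same held for ENST00000566193 (ratio -1.40, mock difference 1.41). When the mock channel of the other HCT116 array was used, 206 of the 232 lower and 59 of the 65 higher genes stayed past the limit. Of the 60 lower genes with further probes, 51 had all of them below 0, and of the 21 such higher genes 18 had all above 0.

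**Figure D2:**
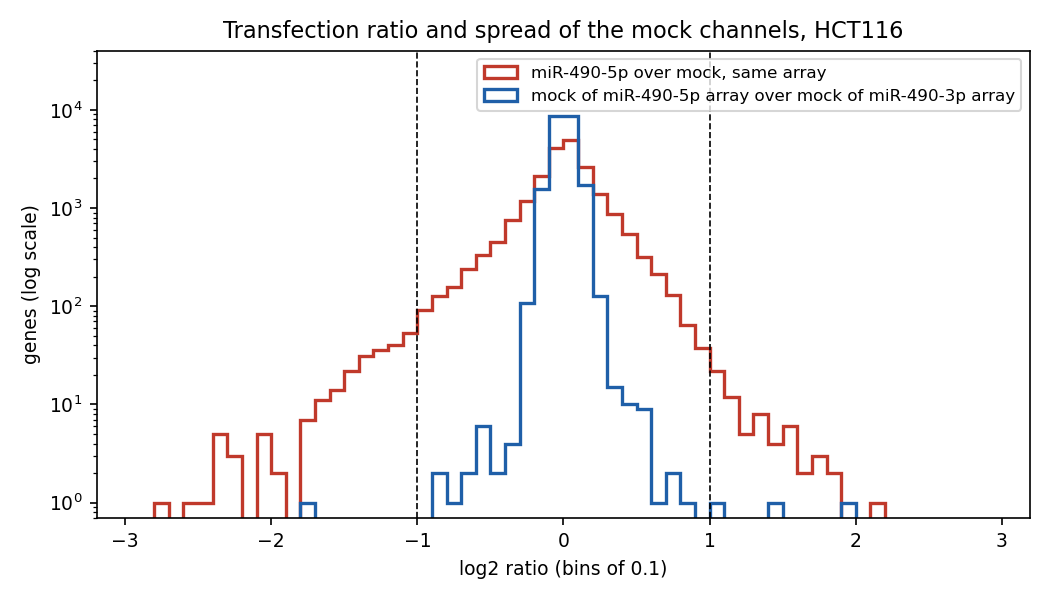
Histogram of genes (log scale) by log2 ratio in bins of 0.1, for miR-490-5p over mock on the same array (red) and for the mock channel of the miR-490-5p array over that of the miR-490-3p array (blue); dashed lines mark -1 and 1. The mock difference has an SD of 0.081 with 4 genes past the lines. The transfection ratio has an SD of 0.31 with 232 genes on the left and 65 on the right of the lines. The mock difference is within 1 dye and the ratio is between dyes, so the SDs are unlike measures.

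The mean of a probe over the 6 arrays of other lines was taken off to find probes with a dye bias. This mean also holds changes made by the transfections on those arrays, so taking it off moves some genes for that reason as well. After this step 182 of the 232 lower and 47 of the 65 higher genes stayed past the limit, and the counts over all genes were 222 lower (1.05%) and 77 higher (0.366%). In the ratio as measured, 210 of the 232 lower genes lay below all 6 other arrays, and 58 of the 65 higher genes above them. These genes were picked for their ratio on this array, so lying outside was likely beforehand. On the renal arrays only 5 to 34 genes were at or below -1 and 0 to 6 at or above 1. On the si-GINS1 arrays 281 and 467 were lower and 130 and 215 higher. The share of all genes outside the range was not taken. ACTL8, the lowest gene of the array, was removed when the mean was taken off. Its ratio of -2.79 stood beside -2.82 to -2.34 on the other arrays. C1QTNF5 was removed likewise, at -2.52 against -2.58 to -2.04, and its Cy5 signal was not well above background.

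HCT116 was checked by colon epithelial markers in the mock channels. Of 16 such markers, 7 were well above background in both HCT116 mocks, among them the intestinal transcription factors CDX1 and CDX2, and 8 were in neither, among them CDH17, VIL1, LGR5 and CEACAM5. CDX2 and EPCAM were higher in both HCT116 mocks than in any mock of the other lines, and CDX1 was not, with a log2 signal of 6.87 and 6.74 in HCT116 against 6.65 to 7.13 elsewhere. The kidney markers PAX2, PAX8, LHX1, UMOD and LRP2 were well above background in both HCT116 mocks, and CDH6, CDH16 and CUBN in neither; PAX8 and LHX1 were lower than in the renal lines. Of the markers of other cell types with a probe, 2 of 6 fibroblast, 2 of 5 immune and 1 of 3 endothelial genes were well above background in both HCT116 mocks. The host gene of miR-490, CHRM2, was not above background, and no probe measured the miRNA itself.

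Genes that fold proteins in the ER were among the lower genes. The ER is where secreted and membrane proteins are made, folded and glycosylated. Its chaperones are known to be raised by the unfolded protein response, in which the sensors ERN1 (IRE1), EIF2AK3 (PERK) and ATF6 act through the transcription factors XBP1, ATF4 and cleaved ATF6. Of 30 ER chaperones and disulfide isomerases 29 were measured, and 13 of these lay at or below -1, 0 at or above 1 and 28 below 0. The median was -0.95, against 0.01 over all genes, and -0.83 after the mean of the other lines was taken off, when 13 were at or below -1 (HYOU1 at -1.12 in place of PPIB at -0.92). The medians of the list on the arrays of other lines lay between -0.21 and 0.29. Its largest difference between the HCT116 mock channels was 0.19. On the miR-490-3p array, where 0.665% of all genes were at or below -1, 9 members were, and the median was -0.64.

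PDIA4, a protein disulfide isomerase of the ER, had a log2 signal of 11.17 and 11.09 in the HCT116 mock channels, 8.82 after miR-490-5p and 9.52 after miR-490-3p. The mocks lay within 0.08 of each other and above both transfected channels, and the ratio after miR-490-5p was -2.39, a 5.23-fold lower signal. HSPA5 (BiP), the Hsp70 chaperone of the ER lumen that also holds the stress sensors inactive, had 10.50 and 10.34 in the mocks, 8.17 after miR-490-5p and 8.93 after miR-490-3p. Its ratio was -2.35, a 5.09-fold lower signal. HSPA5 also moved on the arrays of other lines, between -0.48 and 1.63, and the latter value belonged to si-GINS1 siRNA 1 in MDA-MB-231. HSP90B1 (GRP94), the Hsp90 of the ER, was at -1.62, and its other probe at -1.55; on the other lines it lay between -1.44 and -0.10, so its value less their mean was -1.14.

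The remaining members past -1 were PDIA3 (-1.53), which folds glycoproteins with calnexin and calreticulin, the BiP co-chaperones DNAJB11 (-1.51), DNAJC3 (-1.19), SDF2L1 (-1.11) and DNAJC10 (-1.09), the secreted stress proteins CRELD2 (-1.38) and MANF (-1.18), the lectin chaperone CALR (-1.29), the isomerase P4HB (-1.23) and the cyclophilin PPIB (-1.05). MANF was lower on the miR-490-3p array (-1.47) than on the miR-490-5p array, and DNAJC3 was about equal on them (-1.18 and -1.19). P4HB differed between them, at -1.23 after miR-490-5p and -0.39 after miR-490-3p. The least changed members were TMX1 (0.02) and ERP44 (-0.03), and the exchange factors HYOU1 (-0.99) and SIL1 (-0.65) lay between. ERO1A was not among the genes tested.

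Other parts of the secretory pathway were lower by less. In ER-associated degradation, which returns misfolded proteins to the cytosol for destruction, 2 of 18 genes were at or below -1, HERPUD1 (-1.64) and the ubiquitin ligase SYVN1 (-1.17), and the median was -0.36, with DERL1 highest at 0.05. Among 27 measured genes of translocation and N-glycosylation, 24 were below 0 and 3 at or below -1, the oligosaccharyl transferase subunit STT3A (-1.25), the glucosidase MOGS (-1.18) and the channel subunit SEC61A1 (-1.15), with a median of -0.50 and DAD1 highest at 0.29. Of 26 genes of COPII and COPI vesicle transport 0 lay past the limit in either direction, with a median of -0.12, from -0.79 for SEC24D to 0.40 for SEC23A. Cytosolic and mitochondrial heat shock proteins, which fold proteins outside the ER, had 0 of 13 past the limit and a median of 0.30, from -0.67 for HSPD1 to 0.72 for HSPH1. This median became -0.06 with the median of all probes of a gene in place of the brightest, and the direction of this list is not settled.

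Among 15 measured sensors and transcription factors of the unfolded protein response, 3 were at or below -1 and 13 below 0. TRIB3, a pseudokinase raised by ATF4 and DDIT3, had a log2 signal of 13.27 and 13.17 in the mocks, 11.31 after miR-490-5p and 11.62 after miR-490-3p, and a ratio of -2.08. DDIT3 (CHOP), the transcription factor linked to death under ER stress, was at -1.54, and ATF4, the transcription factor raised when eIF2 is phosphorylated, at -1.45. ATF4 was at -0.59 on the miR-490-3p array. XBP1 (-0.88), ATF6B (-0.91) and ATF6 (-0.50) lay below 0 within the limit, as did the sensors ERN1 (-0.40) and EIF2AK3 (-0.14), and CREB3 was highest at 0.02.

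ATF4 controls genes that make, import and use amino acids, and these were lower as well. Of 32 listed ATF4 targets and amino acid supply genes 29 were measured, all but VLDLR, SLC1A4 and FGF21. Of the 29, 16 lay at or below -1, 0 at or above 1 and 27 below 0. The median was -1.07, and -0.94 with 13 genes at or below -1 (without PSAT1, SLC6A9 and NUPR1) after the mean of the other lines was taken off. The medians on the arrays of other lines lay between -0.20 and 0.07. On the miR-490-3p array 4 members were at or below -1 and the median was -0.31.

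ASNS, which makes asparagine, had a log2 signal of 13.87 in each mock, 11.56 after miR-490-5p and 12.68 after miR-490-3p, and its ratio of -2.37 was a 5.16-fold lower signal. The mocks did not differ at this precision, and the channel of miR-490-3p lay between them and that of miR-490-5p. The serine and one-carbon enzymes SHMT2 (-1.51), PSAT1 (-1.49), PHGDH (-1.47) and MTHFD2 (-1.30) were at or below -1, as was the mitochondrial enzyme PCK2 (-1.17). Of the amino acid carriers, SLC7A11 (-1.5, cystine), SLC7A5 (-1.46) and its partner SLC3A2 (-1.23), SLC38A2 (-1.43, neutral amino acids), SLC7A1 (-1.32, cationic amino acids) and SLC6A9 (-1.01, glycine) were. The rest were CHAC1 (-1.74), which degrades glutathione, DDIT4 (-1.29), an inhibitor of mTORC1 signalling, the stress protein NUPR1 (-1.18) and EIF4EBP1 (-1.07), a repressor of cap-dependent translation. CBS was highest at 0.06.

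Some of these genes were also low on other arrays. PSAT1 reached -1.66, SLC7A11 -1.41, DDIT4 -1.33, SLC7A1 -1.04 and ASNS -1.02 on 1 of the arrays of other lines. CHAC1 (-0.30 to 0.33), PCK2 (-0.20 to 0.03) and MTHFD2 (-0.05 to 0.72) stayed near or above 0 there. SLC7A1 was at 0.07, SLC7A5 and PSAT1 at -0.24 each and CHAC1 at -0.37 on the miR-490-3p array, against -1.32 to -1.74 after miR-490-5p.

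**Figure D3:**
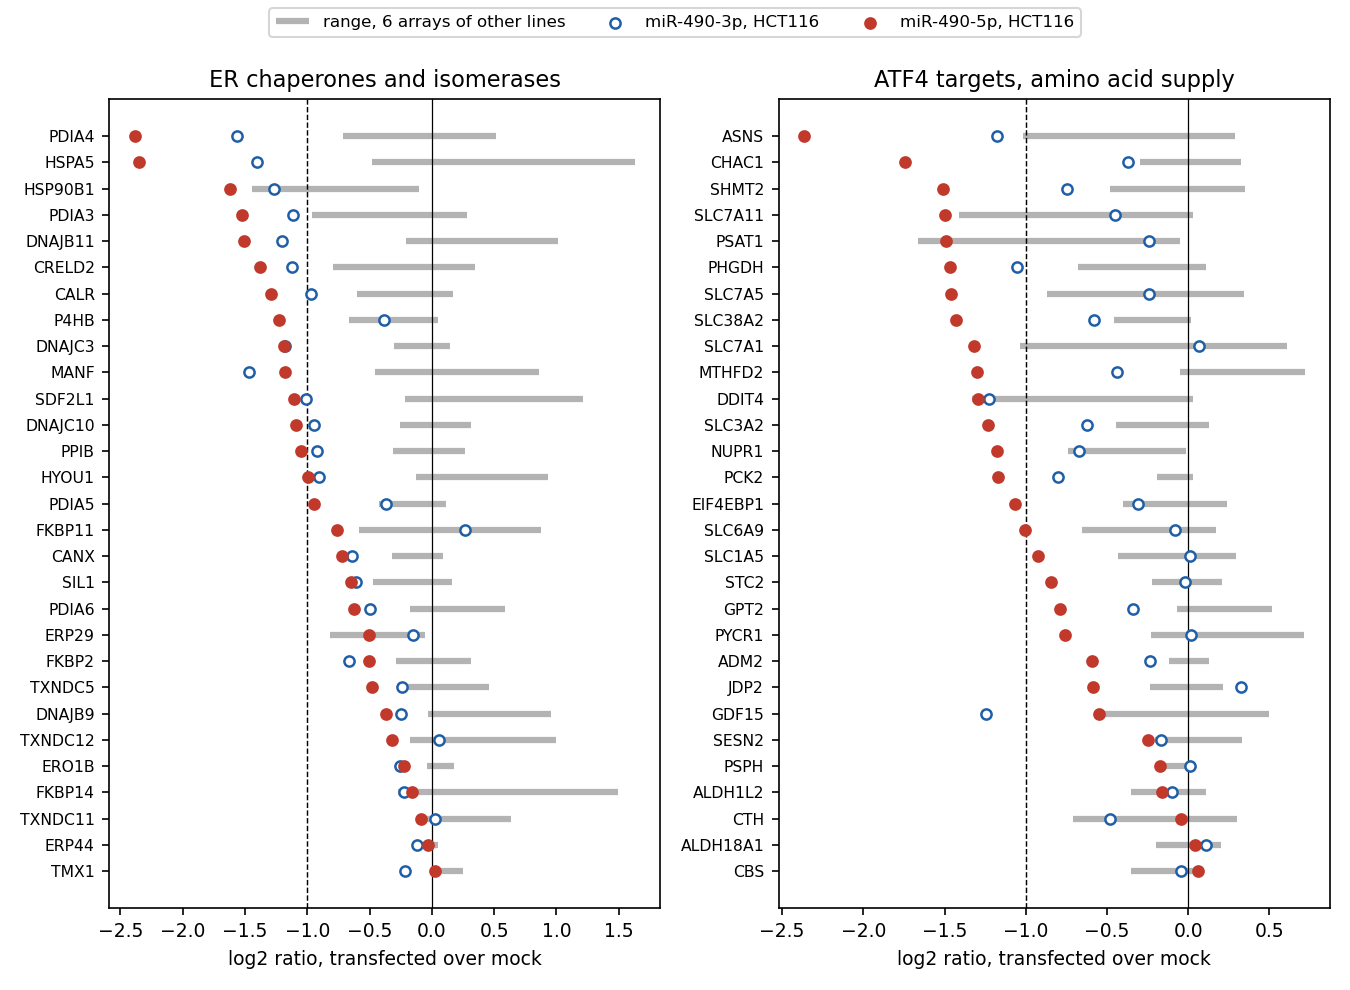
Log2 ratio of transfected over mock (x axis) of each measured member of the ER chaperone list (left) and the ATF4 and amino acid list (right), for miR-490-5p (filled) and miR-490-3p (open) in HCT116, with grey bars for the range over the 6 arrays of other lines; the dashed line marks -1. Filled points at or below -1 number 13 on the left and 16 on the right, and PDIA4, HSPA5 and ASNS are the lowest.

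Cytosolic tRNA synthetases, which load amino acids onto tRNAs and several of which are known ATF4 targets, were below 0 for 17 of 20 genes, with a median of -0.64. SARS1 (-1.33), AARS1 (-1.24), IARS1 (-1.02) and WARS1 (-1.02) were at or below -1, and RARS1 was highest at 0.71. The list's median was -0.02 on the miR-490-3p array. The 7 lists of the secretory pathway, the unfolded protein response, amino acid supply and tRNA synthetases together held 164 measured genes, of which 41 (25%) were at or below -1 and 0 at or above 1. These 41 made up 17.7% of the 232 lower genes.

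Promoters of the lower lists were searched for elements known to bind the transcription factors of these responses, in windows of RefSeq (GRCh38.p14) from 250 bases before to 50 after the start, on both strands. The ER stress response element (CCAAT, a gap of 9 bases and CCACG), bound by ATF6 with NF-Y, was in 22 of 27305 promoters (0.0806%) and in 6 of the 28 ER chaperone promoters in the table (21.4%), those of HSPA5, HSP90B1, CALR, CANX, CRELD2 and ERO1B. These 6 genes had a median log2 ratio of -1.33, and the other 21 measured genes with a promoter -0.76. Only 11938 of the 21046 tested genes had a promoter in the table. Among these, the 14 genes with this element had a median of -0.43, with 4 at or below -1, beside 155 of the 11924 without it. The 4 were CALR, CRELD2, HSP90B1 and HSPA5, all members of the ER chaperone list. The elements of HSPA5, HSP90B1 and XBP1 are shown with 4 flanking bases, the element in capitals.
HSPA5, chr9:125241387-125241413, minus strand: ttcaCCAATCGGCGGCCTCCACGacgg
HSP90B1, chr12:103930212-103930238, plus strand: ctgaCCAATCGGAAGGAGCCACGcttc
XBP1, chr22:28800599-28800625, minus strand: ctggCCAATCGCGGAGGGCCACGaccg
The core of the amino acid response element, TGATGNAA, was in 1003 of all promoters (3.67%) and in 6 of the 16 tRNA synthetase promoters in the table (37.5%), those of AARS1, CARS1, IARS1, MARS1, NARS1 and TARS1. These genes had a median log2 ratio of -0.91, and the other 10 of -0.62. Among the same 11938 genes, the 224 with this core had a median of -0.00, against 0.01 for those without it. At or below -1 lay 9 of the 224 (4.02%) and 150 of the 11714 without it. Among these 9 were AARS1, IARS1, ASNS, CHAC1, HERPUD1, SLC3A2 and SLC7A1, members of the lists above. The unfolded protein response element TGACGTGG was in 217 promoters (0.795%) and in 3 of the 28 of the ER chaperones, those of HYOU1, TXNDC11 and DNAJC10, at -0.99, -0.09 and -1.09. Under 80% of the ATF4 list (24 of 32) and of the 232 lower genes (159) had a promoter in the table. A share over these is void. The 21046 tested genes were under 80% as well, so counts and medians over the 11938 describe only genes with a promoter there. Single elements in ASNS and AARS1, the latter read on the opposite strand, are shown as examples.
ASNS, chr7:97872465-97872480, minus strand: ggcaTGATGAAActtc
AARS1, chr16:70289682-70289697, minus strand: gcagTTGCATCAgcca
A match describes the letters of the window and does not show binding. Members of these lists were known to lie low before the search, so the shares and medians by element describe the lists and are no support for a mechanism.

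Lipid synthesis, which is controlled by the SREBP transcription factors, was lower by little. Of 22 sterol synthesis genes 21 were below 0, the median was -0.37, and 1, DHCR7 (-1.25), the last enzyme of cholesterol synthesis, was at or below -1; HSD17B7 was highest at 0.26. The medians of this list on the other lines ran from -0.43 to 0.16, so -0.37 lay within their range. DHCR7 also reached -1.32 on an array of another line. On the miR-490-3p array the median of this list was 0.18. Of 9 fatty acid genes the desaturase FADS1 (-1.46) was at or below -1, with a median of -0.68 that became -0.39 after the mean of the other lines was taken off, and FADS1 was as low as -2.33 on another line. After this step the desaturase SCD (-1.13) and, of the hypoxia and glycolysis genes, the hexokinase HK2 (-1.05) lay past the limit as well. All 13 measured hypoxia and glycolysis genes lay below 0, with a median of -0.79, and the angiogenic factor VEGFA (-1.57) and the glycolytic enzyme PGK1 (-1.26) were at or below -1, but the medians of this list on the other lines ran from -0.85 to 0.37. GAPDH, a glycolytic enzyme often used as a reference gene, had a log2 signal of 14.47 and 14.34 in the mocks, 13.23 after miR-490-5p and 14.07 after miR-490-3p. Its ratio of -1.36 was below the range of -0.57 to 0.06 on the other lines, and it was the only 1 of 12 housekeeping genes past the limit (median -0.10, with ACTB highest at 0.24).

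Epithelial genes had 4 of 19 at or below -1. MAL2, a membrane protein of transport to the apical surface, had a log2 signal of 11.25 and 11.32 in the mocks, 8.89 after miR-490-5p and 11.15 after miR-490-3p. The 3 channels other than miR-490-5p lay close to each other, and the ratio was -2.40 after miR-490-5p and -0.11 after miR-490-3p; the other MAL2 probe was at -0.69, so the probes differed in size. The splicing factor ESRP1 (-1.42) and the tight junction proteins CLDN7 (-1.19) and CLDN3 (-1.16) followed. With miR-490-3p these were at -2.04, -0.01 and -1.35. The median of the list was -0.17, TJP1 was highest at 0.43, and the mesenchymal list had 0 of 8 past the limit with a median of 0.06. Metallothioneins, which bind zinc and copper, had a median of -0.90 with 1 of 8, MT1M (-1.10, and -0.89 with the mean of the other lines taken off), at or below -1, and -1.23 with all 8 at or below -1 on the miR-490-3p array; MT1F was at 0.24 and -1.24 on these arrays. The metallothionein genes are near-identical copies, so their probes may share signal.

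**Figure D4:**
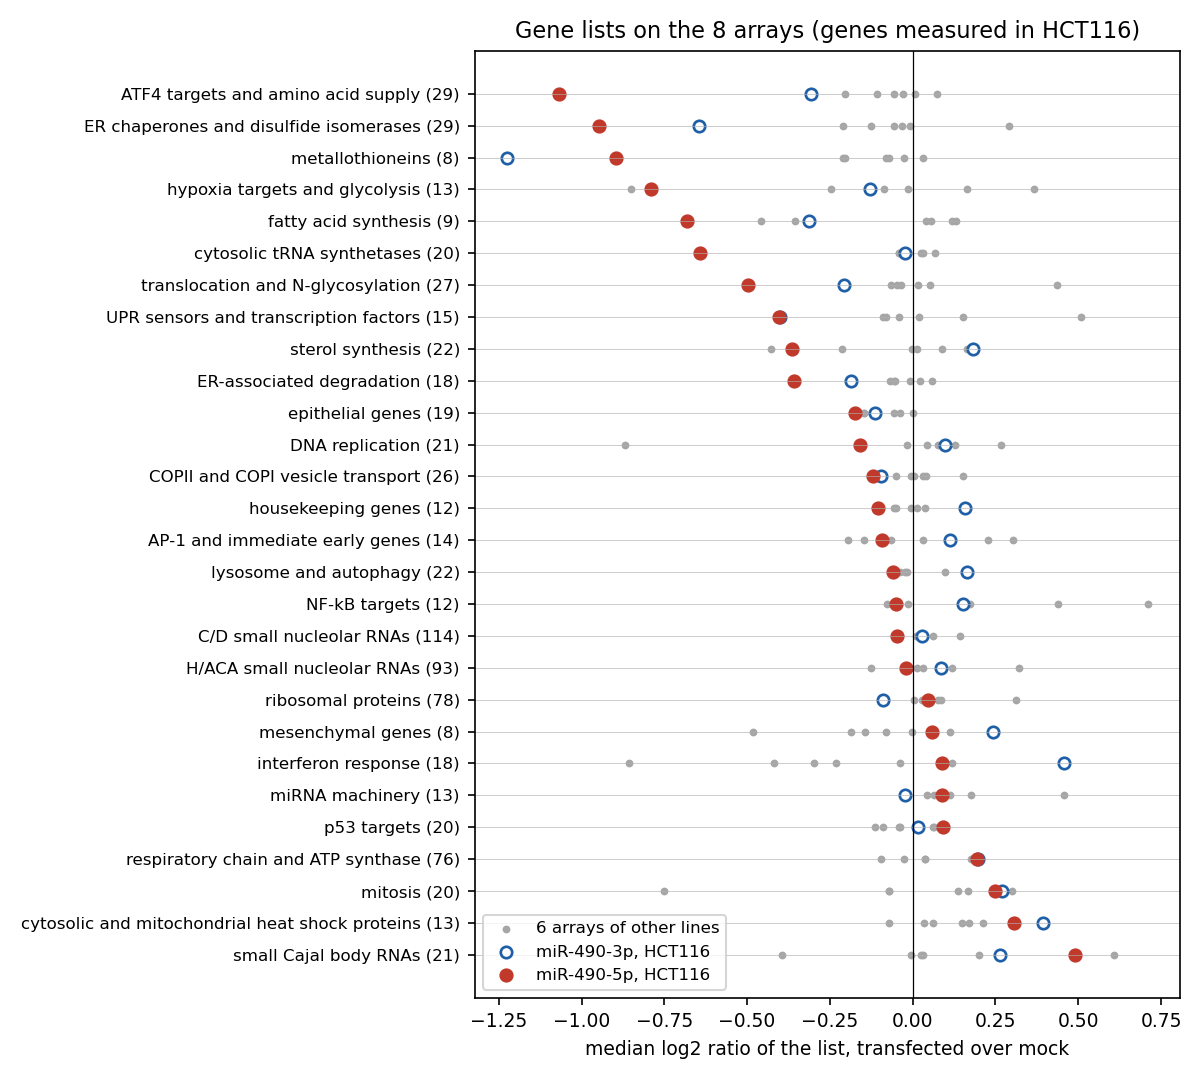
Median log2 ratio of transfected over mock (x axis) of each gene list (genes measured in brackets) on the 8 arrays, filled for miR-490-5p and open for miR-490-3p in HCT116, grey for the 6 arrays of other lines. The lists with the lowest median after miR-490-5p are ATF4 targets and amino acid supply (-1.07), ER chaperones (-0.95) and metallothioneins (-0.90), and the list with the highest is small Cajal body RNAs (0.49).

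Lists of growth and stress changed little. Of 20 p53 targets CCNG1 (-1.33) and BTG2 (1.13) were past the limit and the median was 0.09. With the mean of the other lines taken off, BTG2 fell within the limit (0.97) and TNFRSF10B, a death receptor, passed it (-1.19). DNA replication (21 genes, median -0.16), mitosis (20 genes, 0.25), NF-kB targets (12 genes, -0.05), AP-1 and immediate early genes (14 genes, -0.09) and the interferon response (18 genes, 0.09) had 0 genes past the limit. The interferon list had a median of 0.46 on the miR-490-3p array. With the mean of the other lines taken off, its median on the miR-490-5p array was 0.36. IFIT1 (1.37) and IFIT2 (1.32) were then at or above 1, and the median of NF-kB targets was -0.31. On the other lines the medians ran from -0.86 to 0.12 for the interferon list and from -0.08 to 0.71 for NF-kB targets. The values with the mean taken off thus carry changes on those arrays. Of the lysosome and autophagy list 1 of 22, the glucosidase GAA (-1.02, and -0.73 with the mean of the other lines taken off), was at or below -1, and of 76 respiratory chain genes 1, SDHB (-1.22). Ribosomal proteins (78 genes, median 0.05) and the miRNA machinery (13 genes, 0.09) had none past the limit, and among the latter AGO2 was at -0.18 and XPO5, which exports precursor miRNAs from the nucleus, at -0.53.

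Genes outside these lists were also among the lowest. PLAU, the urokinase that activates plasminogen, had a log2 signal of 12.69 and 12.64 in the mocks, 10.47 after miR-490-5p and 11.12 after miR-490-3p; its ratio was -2.34, and -1.31 at its other probe. TNFRSF6B, a decoy receptor for FAS ligand, was at -2.22, and -1.17 at its other probe, with -0.75 on the miR-490-3p array and -0.06 to 0.09 on the other lines. NIBAN1, a stress-induced regulator of translation, was at -2.05 and at -1.87 on the miR-490-3p array. AKR7A2, an aldo-keto reductase, was at -2.29. The transcripts ENST00000518311 (-2.48), ENST00000511103 (-2.25) and XLOC_l2_014504 (-2.05), which carry no gene symbol in the array annotation, had probes within 1 stretch of chromosome 8, and were at -1.34, -1.25 and -1.07 after miR-490-3p.

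The highest gene was TRIML2, a member of the tripartite motif-like family, with a log2 signal of 8.89 and 8.80 in the mocks, 11.12 after miR-490-5p and 9.81 after miR-490-3p. Its ratio of 2.16 was a 4.48-fold higher signal, and it was between -0.03 and 0.07 on the other lines. Of the 12 highest genes 4 were small Cajal body RNAs, which guide the modification of spliceosomal RNAs: SCARNA20 (1.86), SCARNA11 (1.83), SCARNA8 (1.79) and SCARNA16 (1.73). Of 21 such RNAs 5 were at or above 1 (the other is SCARNA18, 1.12) and the median was 0.49, from -0.00 for SCARNA5 to SCARNA20. This median was 0.83 with an offset of 10 and 1.03 with the scanner log ratio. These probes moved on other arrays too, SCARNA20 from -1.58 to 1.18 and SCARNA13 from -1.64 to 2.71, and the median of the list ran from -0.39 to 0.61 over the other lines. Of the related small nucleolar RNAs, 3 of 93 of the H/ACA class were at or above 1, among them SNORA2B (1.53), and 0 of 114 of the C/D class.

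CDK6, the cyclin D dependent kinase of the cell cycle, had a log2 signal of 9.79 and 9.74 in the mocks, 11.45 after miR-490-5p and 11.42 after miR-490-3p, and a ratio of 1.62. CCN1, a matricellular protein raised by YAP signalling, was at 1.66, and at 1.83 on the miR-490-3p array. HINT3 (1.76), a nucleotide hydrolase, DEF8 (1.55, and 1.41 at its other probe), a lysosomal adaptor, and KATNAL1 (1.55), a microtubule-severing subunit, completed the highest genes with SNAR-A3 (1.51). Near-identical copies of SNAR-A3 may share its signal, and its mock signal was 15.44 on 1 HCT116 array and 14.84 on the other. KATNAL1 was at 0.35 on the miR-490-3p array, within the limit.

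To see whether transcripts that can pair with the seed were lower, probes whose own 60 bases hold a match word were set beside all probes. This looks at the stretch under the probe only, and a site elsewhere in the transcript is not seen. Of 27932 probes tested, 256 (249 genes) held ATCCATG or TCCATGA. Their median log2 ratio was -0.05, against 0.01 over all probes, and 64.8% were below 0, against 47.4%. At or below -1 lay 6 of the 256 (2.34%), against 0.963% of all probes, and 0 lay at or above 1. With the mean of the other lines taken off, the median was -0.06.

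The difference was larger among bright probes. When probes were divided at the median brightness of the array, a split chosen after seeing these data, the 108 brighter probes with a word had a median of -0.23 with 73.1% below 0, against 0.01 and 48.6% over the 13966 brighter probes. All 6 probes at or below -1 were among them, 5.56% of the 108 beside 1.88% of the 13966. The 148 dimmer probes had a median of -0.02. The same brighter probes had a median of 0.01 on the miR-490-3p array.

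Several control words moved less than the words of miR-490-5p, and some moved about as far. Over 154 probes with the antisense of ATCCATG the median was -0.02 and over 172 with that of TCCATGA it was 0.01, with 52.6% and 46.5% below 0. Probes that held only the 6-base core without a longer word had a median of -0.01 (308 probes). Of the 256 probes 255 had a value on the miR-490-3p array, with a median of -0.01 and 52.2% below 0. The probes with a word that passed the filter on each array of the other lines had medians of -0.01 to 0.01. The words of miR-490-3p, in 160 probes of the miR-490-5p array where 50% were below 0, had a median of 0.00. On that array the words of miR-139-5p and miR-139-3p, strands not used in HCT116, had medians of 0.02 and -0.02. The 6-base core of miR-139-5p without a longer word was at 0.05 (218 probes, 36.7% below 0). Its 8-base word was at 0.06 (37 probes). On the array of si-GINS1 siRNA 2, 42 probes with the 8-base word ATCCATGA had a median of -0.05 with 69.0% below 0. Among the words of miR-490-5p, ATCCATG (132 probes) and TCCATGA (168 probes) each had a median of -0.06, and the 43 probes with the 8-base word ATCCATGA did as well, so the longer match was not lower than the shorter ones. These groups overlap, and probes of a gene are not independent.

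**Figure D5:**
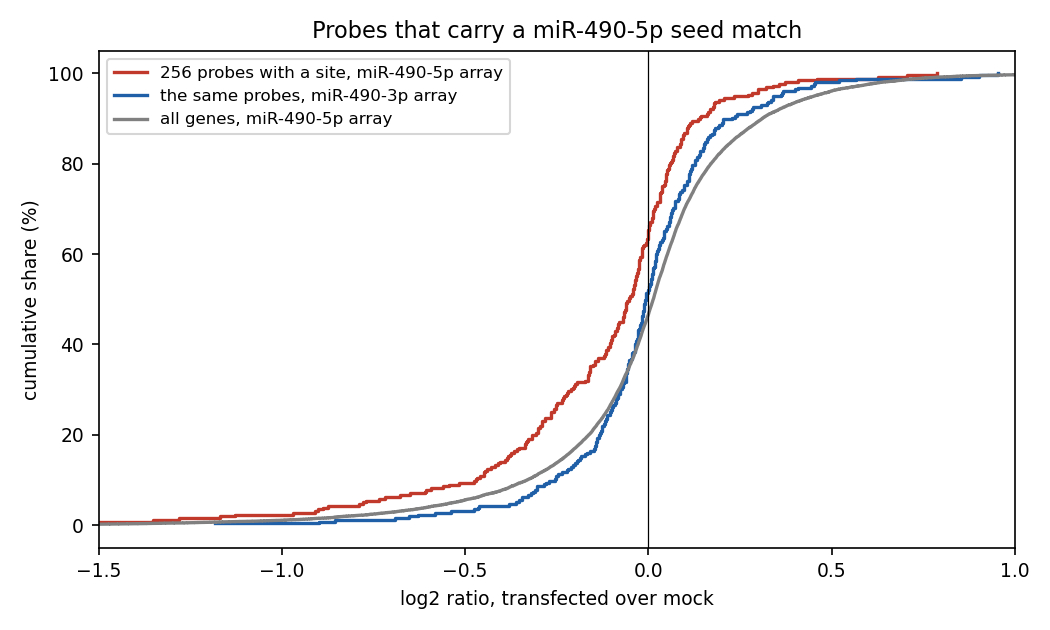
Cumulative share (y axis, percent) of probes by log2 ratio of transfected over mock (x axis) for the 256 probes that carry a miR-490-5p seed match on the miR-490-5p array (red), the 255 of them with a value on the miR-490-3p array (blue) and all genes on the miR-490-5p array (grey). At 0 the red curve stands at 64.8% and the blue at 52.2%.

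The 6 lowest probes with a word are shown with up to 26 bases of the probe around it, the word in capitals, as the array annotation gives the probe, which reads as the message.
AKR7A2: aattgtctagATCCATGcattatttt
GSTO2: aacctgtatATCCATGAttgattacc
RBBP4: tcTCCATGActaactgtgtaagtgct
C11orf58: ccaagtgtttacttgtATCCATGAcc
MBTPS1: aacatagatTCCATGAtctttttaat
PSEN2: aatgctttgTCCATGAtgtccttgtt
On hg19 the probes lie at chr1:19630593-19630652 (AKR7A2), chr10:106057346-106057405 (GSTO2), chr1:33146199-33146258 (RBBP4), chr11:16779256-16779315 (C11orf58), chr16:84087527-84087586 (MBTPS1) and chr1:227083660-227083719 (PSEN2). The exons and untranslated regions they fall in were not analysed here.

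AKR7A2 had a log2 signal of 10.71 and 10.76 in the mocks, 8.45 after miR-490-5p and 9.57 after miR-490-3p. Its ratios were -2.29 and -1.18, so it was lower with either strand. It was also below 0 on the other lines, at -0.90 to -0.11, and its value less their mean was -1.86. GSTO2, a glutathione transferase of the omega class, had 9.13 and 9.02 in the mocks, 7.53 after miR-490-5p and 8.80 after miR-490-3p. Its ratio was -1.61, against -0.20 on the miR-490-3p array and -0.21 to 0.06 on the other lines, so the low channel was that of miR-490-5p. PSEN2, a catalytic subunit of gamma-secretase, was at -1.13, against -0.06 on the miR-490-3p array and 0.00 to 0.22 elsewhere.

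MBTPS1 is the site-1 protease of the Golgi, which cleaves ATF6 and the SREBP precursors into active transcription factors. It had a log2 signal of 10.21 and 10.23 in the mocks, 9.09 after miR-490-5p and 9.99 after miR-490-3p. Its ratio was -1.17, with -0.96 at its other probe, against -0.22 on the miR-490-3p array and -0.27 to 0.03 on the other lines, so the signal after miR-490-5p lay below the other 3 HCT116 channels. ER chaperones and sterol synthesis genes, which lie downstream of these factors, were lower on the same array. The sterol median lay within the range of its medians on the other lines. On the miR-490-3p array, with MBTPS1 at -0.22, the median was -0.64 for ER chaperones and 0.18 for sterol synthesis. Whether MBTPS1 had a part in the lower values was not tested. MBTPS2, the protease that makes the next cut, was at 0.06. The probe of C11orf58 with the 8-base word was at -1.28 (0.33 on the miR-490-3p array), and the brighter probe of this gene was at 0.11. RBBP4, a histone-binding protein, was at -1.35 with other probes from -1.06 to 0.12, and it reached -1.30 on another line. Of the 232 lower genes 6 carried a word in a probe that passed the filter, and of the 65 higher genes 1 did (2.59% and 1.54%), beside 248 of all 21046 genes (1.18%); sites outside the probes were not searched.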

How the data were processed

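Total RNA of mock (Cy3) and transfected (Cy5) HCT116 cells was hybridized to 1 Agilent 2-colour array. Per the file headers, the authors processed the scan with Agilent Feature Extraction on an hg19 design. The deposited intensity columns are each spot's mean signal and median local background, linear and without normalization. Also deposited was the scanner software's log10 ratio of Cy5 over Cy3; it was used only as an alternative, converted to log2. The deposited value table of the series held the same log10 ratios.

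Of 62976 spots 2075 were controls, and the rest measured 58201 probes; 112 to 194 spots per array with an outlier flag were left out, and 0 were saturated. Median spot signals were 25.0 (Cy3) and 21.6 (Cy5) over local backgrounds of 17.0 and 16.0, and dim probes limit the precision. Background was corrected with normexp (offset 50) and ratios were normalized within the array by loess in limma 3.58.1 (R 4.3.3). Spots of 1 probe were averaged. The brightest probe over the 8 arrays stood for a gene, if well above background in at least 1 channel. Log2 signals of single channels were quantile normalized over the 2 HCT116 arrays. Accessions of 31104 of 33080 probes were matched to RefSeq symbols, and the annotation's names were kept otherwise. Later steps used Python 3.11.15, numpy 2.4.6, pandas 2.3.3 and matplotlib 3.10.9. The normalization was tested on simulated data.

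A log2 ratio at or beyond -1 or 1 was the limit of size. Named genes were the 12 lowest and 12 highest that stayed past the limit after the mean of the other lines was taken off and whose other probes had the same sign, list members past the limit with each list's lowest and highest member, the 6 lowest probes with a seed match, and the lowest genes removed by the dye check. Other list members, such as HYOU1, SIL1, XBP1, AGO2 and XPO5, and MBTPS2 were named for their role after their values were seen. The limits, gene lists and words were chosen with earlier results of these data known, and they are no independent support. Background correction, normalization, dye bias, filter, choice of probe and mock channel were varied.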

Additional observations from a re-analysis of the deposited data

How the results depend on the processing

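No paired analysis was possible because each group had 1 array. The 24 genes named as lowest or highest kept their direction under 6 alternatives. These were no background correction, offset, centring, scanner log ratio, filter and mock channel. All 144 log2 ratios stayed at or beyond -1 or 1. Dye bias and probe choice are not counted, since the genes were chosen by them. The 24 genes were also chosen as extreme ratios of this array, so this outcome was largely fixed in advance. The filter could not change it, since all 24 were well above background in both channels. Without background correction 373 genes were lower and 131 higher; with an offset of 10 there were 425 and 166, and with the scanner log ratio 806 and 1026; the cause was not tested. Median centring gave 130 higher genes. With the dye-bias mean taken without A498 there were 110 higher genes and without 786-O 114, also for a cause not tested. The median of the ATF4 and amino acid list was -1.28 without background correction, -1.33 with an offset of 10, -0.91 with median centring, -1.34 with the scanner log ratio and -0.94 with the dye bias removed. The median of the ER chaperone list was -1.05, -1.07, -0.82, -1.08 and -0.83 under the same settings, and -0.68 with the median of all probes of a gene. With median centring the medians of the sterol, fatty acid and ER-associated degradation lists were -0.21, -0.44 and -0.23. Of 233 medians of lists and seed-match probes under the alternatives, 223 kept their sign; the heat shock list turned from 0.30 to -0.06 with the median of all probes, and the other 9 belonged to lists with medians near 0. The median of probes with a seed match was -0.19 with the scanner log ratio and -0.23 over the brighter probes, a split chosen after seeing the data. Dim signals limit what can be seen: the median spot was only slightly brighter than its local background, so small ratios of dim genes were not detectable.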
